A study of Oryza sativa with 51 samples.

Results

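Transcript levels of 8 rice loci that encode MADS-box transcription factors were followed in the flag leaf, the last leaf formed below the panicle. The loci were chosen by identity, with no threshold on a measured value, and they are 8 of the 34653 genes in the expression table. The choice was made with earlier results of these data known. They are MADS14 (LOC_Os03g54160), MADS15 (LOC_Os07g01820), MADS18 (LOC_Os07g41370), MADS50 (LOC_Os03g03070), MADS51 (LOC_Os01g69850), MADS1 (LOC_Os03g11614), MADS16 (LOC_Os06g49840) and MADS3 (LOC_Os01g10504). All 8 were found in the table, none was listed at 0 in any library, and all 8 passed the filter on low values, a mean of at least 1 FPKM (fragments per kilobase of transcript, scaled to the mapped fragments of the library). The gene names were matched to the loci from general knowledge of rice, because the table itself gives loci only.

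The leaves came from field-grown rice at grain filling, and strand-specific RNA sequencing was used. The 3 lines were the super-hybrid LY2186 and its parents, SE21s, which is male-sterile, and MH86, a restorer. A line was sampled at 17 times in steps of 3 h, with Zeitgeber time (ZT) running over 2 days, 0 to 48 h, and a single library stands for each line at each time. The labels state neither the light schedule nor the plants behind a library. The spread that p-values rest on is one between libraries of different times, and how much of it is technical is unknown. Successive times of a line serve as its repeats, and they are not replicates of 1 condition.

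MADS-box proteins bind DNA as dimers and assemble into larger complexes, and in plants they are best known for setting the identity of meristems and floral organs. In rice, MADS14, MADS15 and MADS18 belong to the AP1/FUL-like clade and act when a shoot meristem becomes an inflorescence. They are known to be active in leaves too, where MADS14 and MADS15 respond to the florigen gene Hd3a. MADS50 and MADS51 act earlier, in the leaf: MADS50 is a SOC1-like activator of flowering in long days, and MADS51 promotes flowering in short days upstream of Ehd1. MADS1 is a SEPALLATA-like gene of lemma and palea, MADS16 an AP3-like gene of lodicules and stamens, and MADS3 an AGAMOUS-like gene of stamens, so that all 3 are known mainly from florets.

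The FPKM values of a library summed to between 824871 and 2467820, and the 3 most abundant loci took 24.6 to 68.6% of that sum. Read counts are not part of the values used here. From the smallest steps between low values, relative depth ranged from 1 to 2.63 times that of the shallowest library. The leaf identity of the samples was plain: 5 leaf markers, among them chlorophyll-binding proteins and the Rubisco small subunit, summed to a median of 1798 FPKM in LY2186, 3311 FPKM in SE21s and 1062 FPKM in MH86. DL, a carpel and midrib gene, was listed at 0 in 47 of 51 libraries and nowhere exceeded 0.169 FPKM, and the other 5 panicle markers were not analysed here. Of the 5 grain markers, summed levels had medians of 4.12 FPKM in LY2186, 4.07 FPKM in SE21s and 4.53 FPKM in MH86. The LY2186 library of ZT15 stood apart with a sum of 48.2 FPKM, of which 23.8 came from the glutelin gene GluA1. The next highest sums were 12.7 FPKM in SE21s at ZT27 and 12.2 FPKM in MH86 at ZT18. Calls that change without the first library, or without the other 2, are given beside the results, and the part of the grain markers in them was not tested.

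The 8 genes covered more than 2 orders of magnitude in the leaf. On the FPKM scale, which corrects for transcript length, MADS14 was the most abundant in every line and MADS3 the least. MADS15, MADS18 and MADS51 followed MADS14, and in each line the distances between their means were smaller than the largest of their standard deviations over time. MADS16 and MADS50 formed the next step, with means of 7.54 to 16.8 FPKM, and were not separated beyond their spread. MADS1 lay below both in LY2186 and SE21s, but in MH86 its mean of 8.28 ± 8.91 FPKM (SD, n = 17) fell between those of MADS16 and MADS50.

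**Figure D1:**
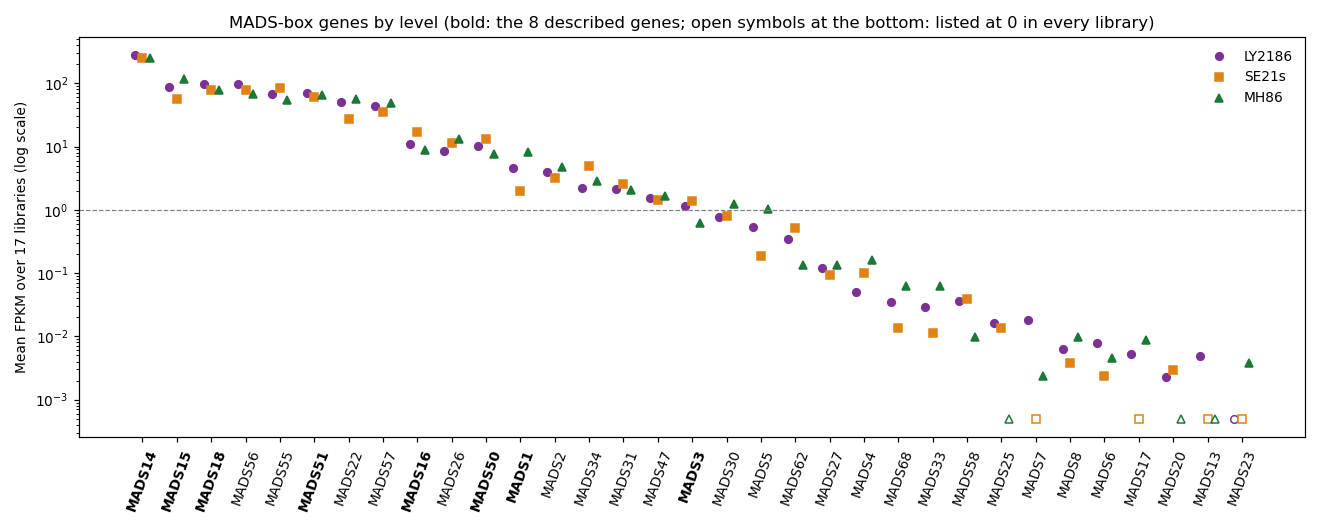
Mean FPKM over 17 libraries (vertical axis, log scale) of the 8 MADS-box genes (bold names) and 25 other MADS-box genes, ordered by level, with a symbol for LY2186, SE21s and MH86 from left to right. The dashed line marks 1 FPKM, and open symbols at the bottom mark genes listed at 0 in every library of that line. MADS14 leads at 275, 249 and 252 FPKM in LY2186, SE21s and MH86.

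Floral MADS-box genes that are known to work with MADS1, MADS16 and MADS3 were mostly near 0 in the same leaves. MADS7 and MADS8, the SEPALLATA-like genes of inner floral organs, were listed at 0 in 46 and 44 of 51 libraries. The AGL6-like genes MADS6 and MADS17 were at 0 in 46 and 48 libraries, and the ovule gene MADS13 in 50. MADS58, the AGAMOUS-like paralogue of MADS3, averaged 0.0281 FPKM. The PISTILLATA-like partners of MADS16 differed: MADS4 averaged 0.103 FPKM and MADS2 3.95 FPKM. MADS5, a SEPALLATA-like relative of MADS1, averaged 0.577 FPKM, and MADS34, another relative that is best known from young panicles, averaged 3.31 FPKM. MADS6, MADS7, MADS8, MADS13, MADS17 and DL were not measured at levels comparable to those of MADS1, MADS16 and MADS3. MADS2 and MADS34 were, with means between the 1.06 FPKM of MADS3 and the 4.93 FPKM of MADS1. In LY2186, the highest values of MADS6, MADS7, MADS8, MADS13, MADS17 and DL all fell in the ZT15 library, which stood apart in grain markers. They were 0.0704, 0.163, 0.108, 0.0843, 0.0901 and 0.0705 FPKM in that order. In SE21s and MH86, values above 0 were highest at other times. The source of these transcripts in the ZT15 library was not tested.

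The AP1/FUL-like genes are described first. MADS14 ranged over the day from 199.9 FPKM at ZT36 to 374 FPKM at ZT3 in LY2186, with a median of 266 FPKM. In SE21s it ranged from 143 FPKM at ZT15 to 458 FPKM at ZT48, with a median of 224 FPKM. In MH86 it ranged from 116 FPKM at ZT15 to 406 FPKM at ZT48, with a median of 248 FPKM. The 3 ranges overlapped almost fully, and all lines were high near ZT0, ZT24 and ZT48 and low between them.

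MADS15 varied more, both over time and between lines. It spanned 42.3 FPKM at ZT27 to 231 FPKM at ZT0 in LY2186, with a median of 74.6 FPKM. In SE21s it spanned 16.1 FPKM at ZT3 to 112 FPKM at ZT48, with a median of 46.4 FPKM. MH86 spanned 24.9 FPKM at ZT12 to 313 FPKM at ZT24, with a median of 86.3 FPKM. SE21s never reached the highest levels of the other lines: 226 FPKM at ZT0 and 215 FPKM at ZT42 in MH86, for example, stood against 71.2 and 96.9 FPKM in SE21s at the same times.

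MADS18 had its highest value in LY2186 at ZT0. It lay between 39.1 FPKM at ZT36 and 247 FPKM at ZT0 in LY2186, with a median of 86.6 FPKM. In SE21s it lay between 35.8 FPKM at ZT33 and 145 FPKM at ZT0, with a median of 76.1 FPKM. In MH86 it lay between 28.0 FPKM at ZT36 and 179 FPKM at ZT24, with a median of 64.0 FPKM. The lines overlapped through most of their ranges, and the lowest values of all 3 came on the second day, at ZT33 or ZT36.

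**Figure D2:**
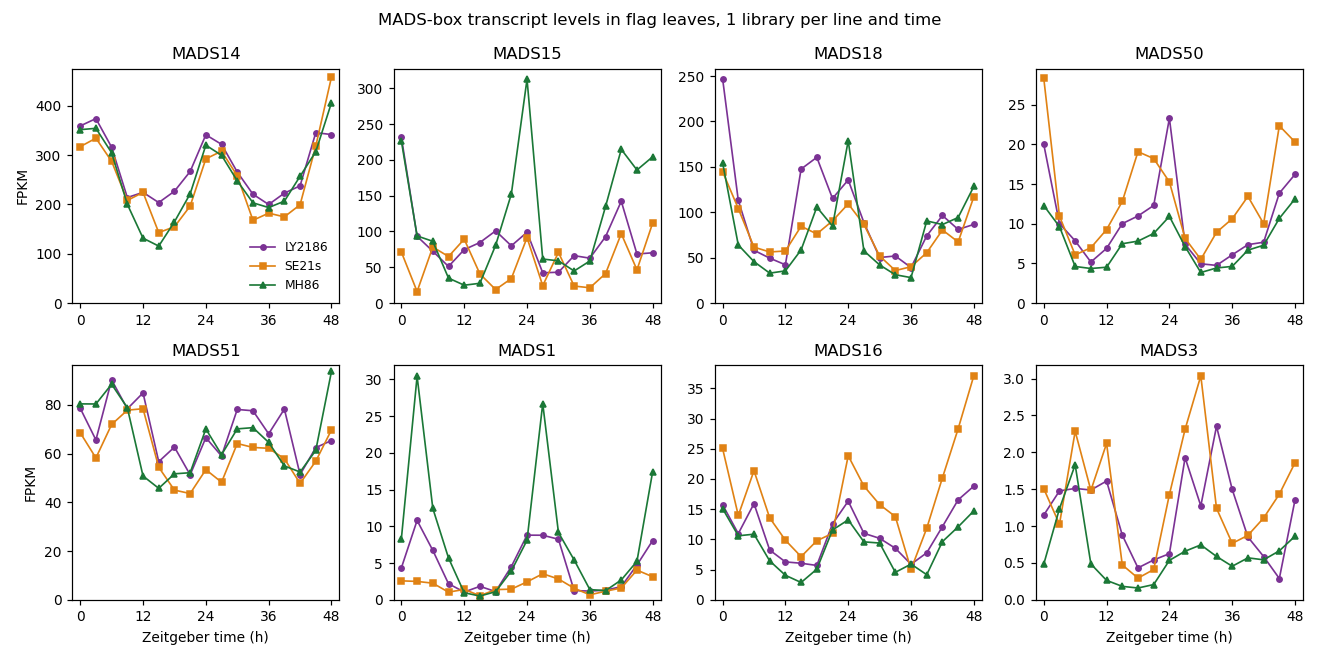
FPKM (vertical axes, linear, from 0) against Zeitgeber time in hours for each of the 8 MADS-box genes, with 1 point per library, circles for LY2186, squares for SE21s and triangles for MH86. MADS1 reaches 30.4 and 26.7 FPKM in MH86 at ZT3 and ZT27, while SE21s stays at or below 4.03 FPKM.

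Of the flowering activators, MADS50 was ordered the same way at most times. It lay between 4.75 FPKM at ZT33 and 23.3 FPKM at ZT24 in LY2186, with a median of 7.84 FPKM. SE21s lay between 5.50 FPKM at ZT30 and 28.3 FPKM at ZT0, with a median of 10.96 FPKM, and MH86 between 3.85 FPKM at ZT30 and 13.1 FPKM at ZT48, with a median of 7.29 FPKM. SE21s was above MH86 at all 17 times, although the ranges over the day overlapped.

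MADS51 was the steadiest of the 8. LY2186 held 51.3 to 90.3 FPKM with a median of 66.6 FPKM, SE21s 43.6 to 78.5 FPKM with a median of 58.2 FPKM, and MH86 45.8 to 93.8 FPKM with a median of 64.6 FPKM. The highest value of a line was at most 2.05 times its lowest in all 3 lines.

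MADS1 had the highest ratio of highest to lowest value among the 3 floral-organ genes in LY2186 (10.3) and MH86 (60.7). In SE21s that ratio was 7.27 for MADS1, 7.39 for MADS16 and 10.4 for MADS3. MADS1 moved between 1.05 FPKM at ZT12 and 10.8 FPKM at ZT3 in LY2186, with a median of 4.35 FPKM. SE21s moved between 0.555 FPKM at ZT15 and 4.03 FPKM at ZT45, with a median of 1.60 FPKM. MH86 moved between 0.501 FPKM at ZT15 and 30.4 FPKM at ZT3, with a median of 5.41 FPKM. The lines were close together at ZT18, with 1.11 FPKM in LY2186, 1.38 FPKM in SE21s and 1.097 FPKM in MH86, and far apart at ZT3 and ZT27. At ZT3 the values were 10.8 FPKM in LY2186, 2.49 FPKM in SE21s and 30.4 FPKM in MH86, and at ZT27 they were 8.78, 3.54 and 26.7 FPKM in the same order of lines.

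MADS16 was highest in SE21s. It had 5.68 FPKM at ZT18 to 18.8 FPKM at ZT48 in LY2186, with a median of 10.9 FPKM, and 5.02 FPKM at ZT36 to 37.1 FPKM at ZT48 in SE21s, with a median of 13.96 FPKM. In MH86 it had 2.86 FPKM at ZT15 to 15.1 FPKM at ZT0, with a median of 9.58 FPKM. SE21s passed the highest value of both other lines at 7 of its 17 times.

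MADS3 stayed low everywhere. LY2186 held 0.288 to 2.35 FPKM with a median of 1.27 FPKM, SE21s 0.293 to 3.04 FPKM with a median of 1.43 FPKM, and MH86 0.159 to 1.83 FPKM with a median of 0.542 FPKM. In MH86 it passed 1 FPKM at ZT3 and ZT6 and at no other time. The fragment counts behind these low values are unknown.

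Lines were compared over the 17 matched times with limma on log2(FPKM + 0.5), with time point as a block, two-sided, and with Benjamini-Hochberg adjustment over the 16842 genes that passed the filter. A gene was called at an adjusted p below 0.05. With 1 library per line and time, the spread behind these p-values is the variation of line differences over the times. It includes differences in rhythm between lines. On this scale the fold change of low genes is understated. The comparisons share libraries, so each is given with its own values. In whole leaves, fewer cells that express a gene and less RNA of it per cell cannot be told apart.

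The parents differed in 6 members, 3 higher and 3 lower in SE21s. The calls of MADS16, MADS50, MADS3 and MADS1 held under all 11 alternatives. MADS16 was higher in SE21s than in MH86, averaging 16.8 ± 8.35 FPKM in SE21s and 8.81 ± 3.93 FPKM in MH86 (SD, n = 17 each), with a log2 difference of 0.88 ± 0.09 (SE; limma adjusted p = 1.08e-10; higher at 15 of 17 times). MADS50 was higher as well, at 13.3 ± 6.41 FPKM in SE21s and 7.54 ± 2.98 FPKM in MH86, a log2 difference of 0.73 ± 0.08 (limma adjusted p = 1.19e-09; higher at 17 of 17 times). So was MADS3, at 1.39 ± 0.75 FPKM in SE21s and 0.615 ± 0.411 FPKM in MH86, by 0.72 ± 0.13 (limma adjusted p = 1.08e-05; 16 of 17 times). The mean of MADS3 over all libraries, 1.06 FPKM, was just above the filter, and its mean in MH86 was below it. With no filter on low values, MADS3 was still called against MH86, in SE21s and in LY2186. MADS1 was lower in SE21s, averaging 2.01 ± 1.01 FPKM in SE21s and 8.28 ± 8.91 FPKM in MH86, with a log2 difference of -1.23 ± 0.21 (limma adjusted p = 2.81e-06; lower at 14 of 17 times). MADS15 was lower too, at 55.4 ± 31.0 FPKM in SE21s and 118 ± 84.7 FPKM in MH86, a difference of -0.95 ± 0.25 (limma adjusted p = 0.00098; lower at 13 of 17 times), a call that was lost with the first day alone.

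MADS51, the other member called lower, was at the threshold, with a difference of -0.13 ± 0.06 between SE21s and MH86 (limma adjusted p = 0.04995; lower at 14 of 17 times), and this call was lost under 8 of 11 alternatives and on omitting any of 14 of the 17 times. Both alternatives that leave out libraries with grain markers were among the 8, with MADS51 at -0.13 in each. MADS14 (-0.01 ± 0.06) and MADS18 (0.12 ± 0.11) were not called, and their direction changed with the setting. MADS14 came out at 0.0684 with median-ratio scaling, uncalled, and was called lower in SE21s with quantile scaling, at -0.21. MADS18 came out at -0.0505 with the second day alone. The 6 of 8 members called stood beside 69% of all genes tested that were called between the parents, so the share of members called was close to that of all genes. The median log2 difference was 0.06 over the members and -0.08 over all genes tested.

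The hybrid lay between its parents for MADS16 and MADS50 and differed from both. Against SE21s, MADS16 was lower in LY2186 by a log2 difference of -0.52 ± 0.09 (limma adjusted p = 7.9e-06; lower at 15 of 17 times), and MADS50 by -0.36 ± 0.08 (limma adjusted p = 0.000328; lower at 15 of 17 times). Against MH86, MADS16 was higher in LY2186 by 0.36 ± 0.09 (limma adjusted p = 0.00185; higher at 16 of 17 times) and MADS50 by 0.37 ± 0.08 (limma adjusted p = 0.000619; higher at 17 of 17 times). Neither was called against the mean of the parents. The call of MADS16 against MH86 was lost with either day alone, and that of MADS50 with the second day alone.

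MADS1 and MADS15 were called in LY2186 against SE21s and not against MH86. MADS1 averaged 4.51 ± 3.38 FPKM in LY2186 and 2.01 ± 1.01 FPKM in SE21s, a log2 difference of 0.76 ± 0.21 (limma adjusted p = 0.00199; higher at 14 of 17 times). MADS15 averaged 86.8 ± 44.4 FPKM in LY2186 and 55.4 ± 31.0 FPKM in SE21s, a difference of 0.76 ± 0.25 (limma adjusted p = 0.0089; higher at 12 of 17 times). The differences from MH86 were -0.47 ± 0.21 for MADS1 (limma adjusted p = 0.077) and -0.19 ± 0.25 for MADS15 (limma adjusted p = 0.592). Without the LY2186 library of ZT15, MADS1 was called lower in LY2186 than in MH86, at -0.54, and so it was without SE21s at ZT27 and MH86 at ZT18, at -0.53. MADS3 was higher in LY2186 than in MH86 by 0.57 ± 0.13 (limma adjusted p = 0.000927; higher at 15 of 17 times), and its difference from SE21s was -0.15 ± 0.13 (limma adjusted p = 0.322). Quantile scaling called it lower in LY2186 than in SE21s, at -0.31.

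MADS14 was slightly higher in LY2186 than in either parent. The log2 difference was 0.19 ± 0.06 from SE21s (limma adjusted p = 0.0137; higher at 16 of 17 times), 0.17 ± 0.06 from MH86 (limma adjusted p = 0.0367; 15 of 17 times) and 0.18 ± 0.06 from the parental mean of log2 values (limma adjusted p = 0.0154; 16 of 17 times). The call against SE21s was lost with median-ratio scaling, at 0.13, and that against MH86 was lost without the LY2186 library of ZT15, at 0.14, without SE21s at ZT27 and MH86 at ZT18, at 0.17, with quantile scaling, at 0.13, and on omitting any of 5 of the 17 times. MADS18 was higher in LY2186 than in MH86 by 0.34 ± 0.11 (limma adjusted p = 0.017; 13 of 17 times) and not called against SE21s, at 0.22 ± 0.11 (limma adjusted p = 0.0925). MADS51 was higher in LY2186 than in SE21s by 0.20 ± 0.06 (limma adjusted p = 0.00387; 16 of 17 times), with a difference of 0.07 ± 0.06 from MH86 (limma adjusted p = 0.366).

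Counted together, 4 of 8 members were higher and 2 lower in LY2186 than in SE21s. Of all genes, 57.2% were called, 32.8% higher and 24.5% lower. Against MH86, 5 of 8 members were higher and none lower in LY2186, where 32.4% of all genes were called, 14.8% higher and 17.6% lower. Against the mean of the parents, 26.8% of all genes were called, 16.3% higher and 10.5% lower. Among the members, MADS14, MADS18 (0.28 ± 0.10, limma adjusted p = 0.0287) and MADS51 (0.14 ± 0.05, limma adjusted p = 0.0421) were higher. Without the LY2186 library of ZT15, MADS14 alone of these 3 was still called, with MADS18 at 0.23 and MADS51 at 0.14, and the same was so with no filter on low values. The call of MADS51 was also lost with median-ratio scaling, without SE21s at ZT27 and MH86 at ZT18, at 0.13, and on omitting any of 12 of the 17 times, and that of MADS18 on omitting any of 4. The median log2 differences of the members were 0.20, 0.26 and 0.16 in these 3 comparisons, against 0.04, -0.02 and 0.02 over all genes tested. With time point left out of the model, MADS3 against MH86 was the only LY2186 call that held. With single days, MADS14, MADS15, MADS51 and MADS1 were not called against SE21s on the first day, nor were MADS14 and MADS16 against MH86. On the second day MADS1 was not called against SE21s either, nor was any member against MH86. The level of the leaf markers and the grain markers of the ZT15 library moved beside these values, and their part in them was not tested.

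**Figure D3:**
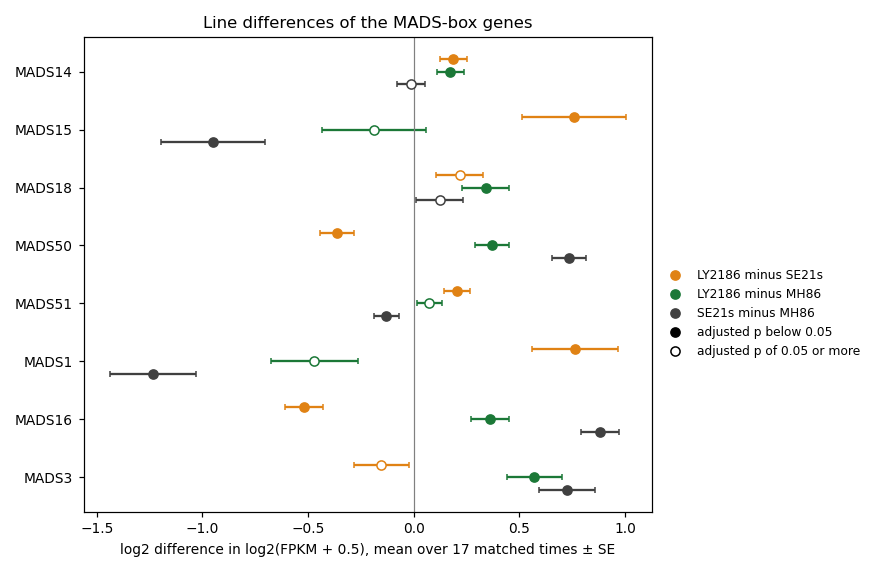
Log2 difference in log2(FPKM + 0.5) over the 17 matched times (horizontal axis, with SE bars) for each of the 8 MADS-box genes, coloured by comparison. Filled points passed an adjusted p of 0.05 in limma and open points did not. MADS50, MADS16 and MADS3 lie to the right for SE21s minus MH86, and MADS15 and MADS1 to the left.

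A 24 h rhythm was tested in each line with limma, by cosine and sine terms over its 17 libraries. Most genes of the leaf passed this test: 71.1% of all genes tested in LY2186, 67.5% in SE21s and 72.1% in MH86. The members passed it at shares somewhat above those, 7 of 8 in LY2186, 7 of 8 in SE21s and 8 of 8 in MH86, and the gene that did not pass in LY2186 and SE21s was MADS15 in both. In LY2186 it was near the threshold (limma adjusted p = 0.0589) and was called with quantile scaling and on omitting ZT0, ZT21 or ZT45.

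Fitted peaks are given in order of the hour, and no grouping of them was tested. The fitted peaks of MADS18 and MADS50 fell in the last hours of the cycle. Those of MADS18 were at 21.5 ± 0.81 h in LY2186, 22.9 ± 0.69 h in SE21s and 21.7 ± 0.47 h in MH86 (SE). Those of MADS50 were at 22.1 ± 0.61 h, 20.4 ± 0.64 h and 22.0 ± 0.49 h in the same lines. Measured values of both genes, averaged by hour over the 2 days, were highest at hour 0 in all 3 lines. For MADS18 in LY2186 the means were 191 FPKM at hour 0 and 98.1 FPKM at hour 21. For MADS50 in SE21s they were closer, at 21.8 and 20.3 FPKM. MADS14, MADS16 and MADS1 peaked in the hours after ZT0, MADS16 at 0.782 to 0.886 h, MADS14 at 1.14 to 1.97 h and MADS1 at 1.53 to 3.03 h over the 3 lines. MADS3 peaked at 4.46 to 7.34 h and MADS51 at 4.17 to 7.90 h. In MH86, the peaks of MADS1 at 3.03 ± 0.29 h, MADS51 at 4.17 ± 0.85 h and MADS3 at 4.46 ± 1.01 h lay close to each other. The fitted peak of MADS15 in MH86, where its rhythm was called, was at 22.3 ± 0.66 h. Its measured mean there was 270 FPKM at hour 0 and 169 FPKM at hour 21.

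MADS1 had the largest fitted rhythm of the 8 in LY2186 and in MH86. Its fitted trough-to-peak fold was 6.48 in LY2186 (limma adjusted p = 1.37e-06), 2.60 in SE21s (limma adjusted p = 0.000235) and 15.6 in MH86 (limma adjusted p = 6.28e-08). MADS15 reached 5.65-fold in MH86 (limma adjusted p = 0.00023), with uncalled fits of 1.92-fold in LY2186 and 1.28-fold in SE21s, and MADS18 2.96-fold in LY2186, 2.33-fold in SE21s and 4.08-fold in MH86. MADS50 stood at 2.87, 2.85 and 2.54-fold, MADS16 at 2.37, 2.75 and 3.16-fold and MADS14 at 1.75, 2.10 and 2.29-fold and MADS3 at 2.41, 2.35 and 1.89-fold in LY2186, SE21s and MH86. MADS51 had the smallest called rhythms, 1.38-fold in LY2186 (limma adjusted p = 0.0298), 1.38-fold in SE21s (limma adjusted p = 0.0401) and 1.60-fold in MH86 (limma adjusted p = 0.00333), and the call in SE21s was lost with no filter on low values and on omitting any of 8 of the 17 times, that in LY2186 on omitting any of 3.

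**Figure D4:**
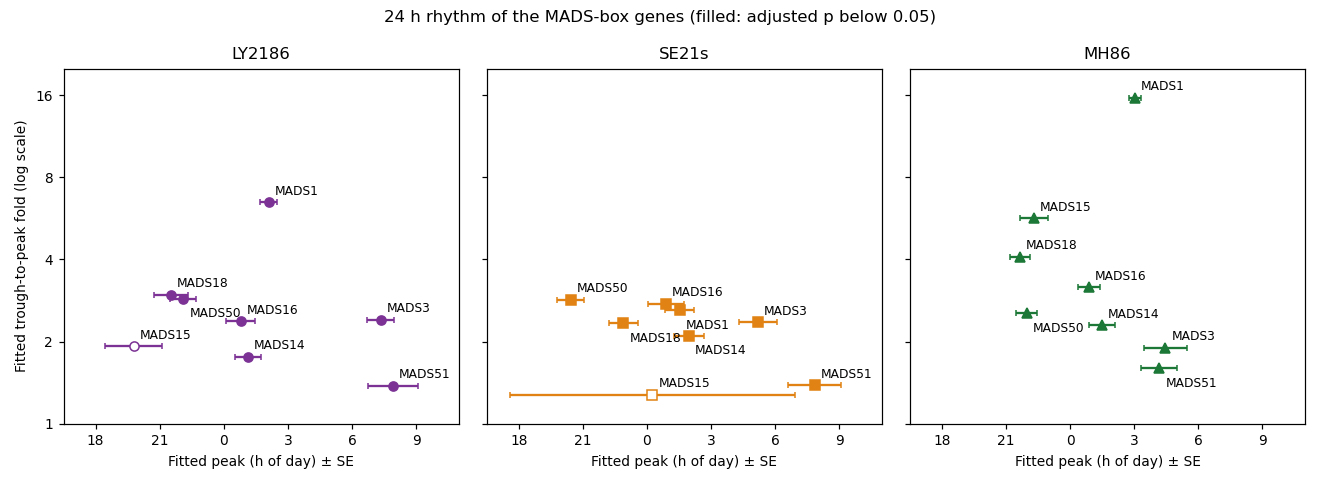
Fitted trough-to-peak fold (vertical axis, log scale) against fitted peak hour with SE (horizontal axis, hour of day) for the 8 MADS-box genes in LY2186, SE21s and MH86. Filled symbols passed an adjusted p of 0.05 and open ones did not. MADS1 stands at 6.48, 2.60 and 15.6-fold in the 3 panels, and MADS15 is open in LY2186 and SE21s.

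Whether a rhythm differs between lines was tested directly, with terms for line by cosine and by sine over all 51 libraries. Of the 8 members, MADS1 (limma adjusted p = 9.28e-05), MADS51 (limma adjusted p = 0.00654) and MADS15 (limma adjusted p = 0.0291) were called, beside 25.2% of all genes tested. MADS14, MADS18, MADS50, MADS16 and MADS3 were not, with limma adjusted p from 0.0873 to 0.687, which does not show that their rhythms are alike. For MADS15 the call was lost with no filter on low values and on omitting any of 5 times.

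Pairs of lines were then tested, a choice made after these results were seen. Between SE21s and MH86, MADS1 (limma adjusted p = 1.42e-05), MADS51 (0.00525), MADS15 (0.0158) and MADS18 (0.0352) were called, 4 of 8 beside 27.5% of all genes; the call of MADS18 was lost with no filter on low values, without SE21s at ZT27 and MH86 at ZT18, and on omitting any of 6 times. Between LY2186 and SE21s only MADS1 was called (limma adjusted p = 0.0386), beside 12.6% of all genes, and on omitting any of 9 of the 17 times that call was lost, as it was with a pseudocount of 0.1, with no filter on low values and without SE21s at ZT27 and MH86 at ZT18. Between LY2186 and MH86 only MADS51 was called (limma adjusted p = 0.0324), beside 2.33% of all genes, and that call was lost on omitting any of 6 times. MADS1 was near the threshold in this pair (limma adjusted p = 0.0656). It was called with a pseudocount of 1 and on omitting ZT30 or ZT42. The fitted peak of MADS51 was at 7.90 h in LY2186, 7.84 h in SE21s and 4.17 h in MH86.

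MADS1 ran close to Hd3a, the florigen gene, whose product moves from leaf to shoot tip. Over the 51 libraries, Hd3a had the highest Pearson r with MADS1 of all 16841 other genes tested, at 0.902 on log2 values, followed by LOC_Os09g23150 at 0.891. Within lines, r with Hd3a was 0.887 in LY2186, 0.886 in SE21s and 0.925 in MH86, over 17 libraries each. LOC_Os09g23150 was above Hd3a within every line, at 0.943 in LY2186, 0.8935 in SE21s and 0.969 in MH86, so that the rank of Hd3a holds for the pooled libraries only. These values are descriptions, since the libraries share the time of day, and both genes had their lowest mean in SE21s. Between LY2186 and MH86 neither gene was called over the 17 times, with log2 differences of -0.47 for MADS1 and -0.03 for Hd3a. Hd3a averaged 49.7 FPKM in LY2186, 10.3 FPKM in SE21s and 58.4 FPKM in MH86. Its fitted rhythm was 16.6-fold with a peak at 3.34 h in LY2186, 6.20-fold at 1.002 h in SE21s and 33.1-fold at 4.16 h in MH86.

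**Figure D5:**
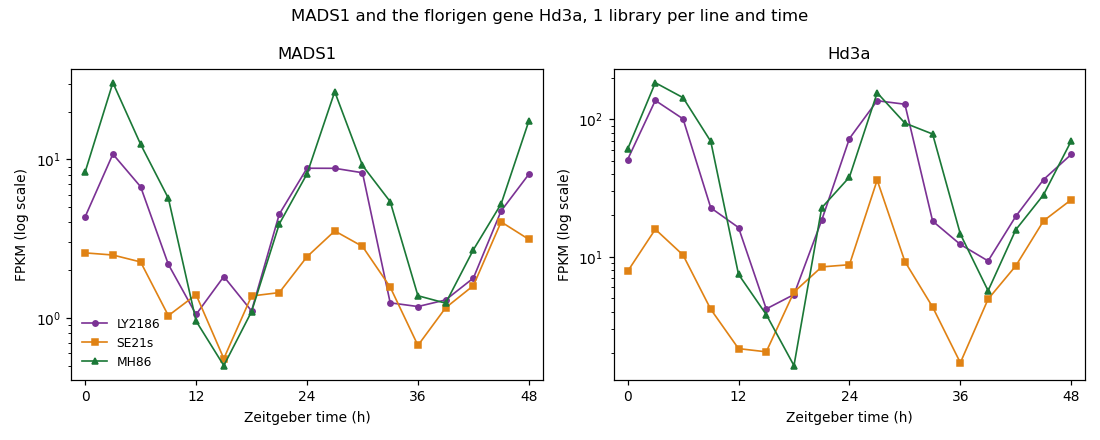
FPKM (log scale) of MADS1 (left) and Hd3a (right) against Zeitgeber time in hours, 1 point per library, circles for LY2186, squares for SE21s and triangles for MH86. SE21s lies lowest at ZT3 and ZT27 in both panels, with MADS1 at 2.49 FPKM at ZT3, against 10.8 FPKM in LY2186 and 30.4 FPKM in MH86.

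The other members had the following nearest patterns over 51 libraries. MADS14 was nearest to LOC_Os04g41460 and LOC_Os04g36058, with r of 0.932 and 0.93, and MADS16 to LOC_Os04g51580 and LOC_Os03g11560, with r of 0.908 and 0.891. Both had the SVP-like gene MADS55 as their nearest gene of the flowering and MADS-box lists, with r of 0.82 for MADS14 and 0.864 for MADS16. MADS18 was nearest to LOC_Os03g43390 (r = 0.899) and LOC_Os08g13920, and MADS50 to LOC_Os09g29970 (r = 0.918) and LOC_Os03g39010. For these genes the closest listed ones were COL4, a CONSTANS-like repressor, at 0.585 for MADS18, and MADS31 at 0.545 for MADS50.

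Lower values were found for the rest. MADS15 was nearest to LOC_Os06g47350 (r = 0.835) and LOC_Os01g74410 (r = 0.831), and within LY2186 alone these had an r of 0.52 and 0.233. Its closest listed gene was the SVP-like MADS22, at 0.697. MADS51 was nearest to LOC_Os08g14195 (r = 0.799) and LOC_Os07g25420, and MADS3 to LOC_Os01g66970 (r = 0.813) and LOC_Os01g14840. Within LY2186 alone, r with these genes was 0.68 and 0.567 for MADS51 and 0.438 and 0.584 for MADS3. Within SE21s and within MH86, r of the same pairs was at least 0.728. Over the 51 libraries, GF14c, the 14-3-3 protein that binds Hd3a, was the closest listed gene of MADS51, at 0.539, and of MADS3, at 0.661. Among the members themselves, the highest r were 0.732 for MADS14 with MADS1, 0.71 for MADS14 with MADS16 and 0.685 for MADS18 with MADS50, and the lowest was -0.223 for MADS50 with MADS51.

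Of the 25 other MADS-box genes in the table, 9 passed the filter, and 5 of the 30 listed were not analysed here. Between LY2186 and SE21s, 4 of these 9 were higher and 3 lower in LY2186, beside 32.8% and 24.5% of all genes tested. MADS22, which is SVP-like, was higher in LY2186 at 17 of 17 times, by 0.85 ± 0.07 (limma adjusted p = 6.53e-13), while MADS55 was lower by -0.34 ± 0.06 and MADS34 by -0.98 ± 0.23. Against MH86, 2 were higher and 3 lower in LY2186, beside 14.8% and 17.6% of all genes tested. MADS56, a SOC1-like relative of MADS50 that is known to repress flowering in long days, was higher by 0.54 ± 0.09 (limma adjusted p = 2.31e-05). Against the mean of the parents, 2 were higher, MADS22 by 0.36 ± 0.06 and MADS56 by 0.43 ± 0.08, each at 17 of 17 times, and 2 were lower, MADS26 and MADS34. In that comparison 16.3% of all genes tested were higher and 10.5% lower.

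Between the parents, 3 of the 9 other MADS-box genes were higher and 3 lower in SE21s, beside 28.6% and 40.4% of all genes tested. MADS55 was higher at 17 of 17 times, by 0.65 ± 0.06 (limma adjusted p = 1.41e-11), and MADS22 lower at 17 of 17 times, by -0.99 ± 0.07 (limma adjusted p = 3.11e-15). These 2 SVP-like genes thus differed in opposite directions. A rhythm was called for 6 of 9 in LY2186, 6 of 9 in SE21s and 8 of 9 in MH86, beside 71.1%, 67.5% and 72.1% of all genes tested. A rhythm difference between lines was called for MADS22 (limma adjusted p = 0.00565) and MADS56 (limma adjusted p = 0.024), beside 25.2% of all genes tested.

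The flowering genes around the members moved with the parents as follows. Of 8 tested, 2 were higher and 4 lower in SE21s than in MH86, beside 28.6% and 40.4% of all genes tested. Hd3a was lower at 16 of 17 times. Ehd1, the activator downstream of MADS51, averaged 1.15 FPKM in LY2186, 0.0562 FPKM in SE21s and 2.17 FPKM in MH86. FD1, the bZIP partner of the florigen at the shoot tip, was at or below 0.364 FPKM and listed at 0 in 14 of 51 libraries. In LY2186, 3 of 8 flowering genes were higher and 1 lower than in SE21s, beside 32.8% and 24.5% of all genes tested. Only COL4 was called against MH86, higher by 0.56 ± 0.21 (limma adjusted p = 0.0369), beside 32.4% of all genes tested. Rhythm differences between lines were called for Hd3a (limma adjusted p = 5.07e-05), Ehd1 (limma adjusted p = 4.22e-07) and Hd1 (limma adjusted p = 0.000235). In SE21s, Ehd1 had a median of 0 FPKM and a highest value of 0.211 FPKM, below the pseudocount. For Ehd1 the test therefore cannot tell an altered rhythm from near absence of the transcript in SE21s.

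The days of sampling were compared with a day term shared by the lines, in which opposite shifts of the lines can cancel. Over 48 libraries from ZT0 to ZT45, with each hour paired within a line, MADS18 was lower on the second day by -0.28 ± 0.07 (limma adjusted p = 0.00425; lower in 19 of 24 pairs), and none of the other 7 members was called, beside 42% of all genes tested. The mean of MADS18 on the second day was 77.1 FPKM in LY2186, 65.8 FPKM in SE21s and 76.1 FPKM in MH86, against 117, 84.4 and 72.7 FPKM on the first day. The means of LY2186 and SE21s were thus lower on the second day, and that of MH86 was not. The mean of MADS15, which was not called, moved in opposite directions in LY2186 and MH86. It was 98.5 FPKM on the first day and 77.1 FPKM on the second in LY2186. The values were 51.7 and 52.0 FPKM in SE21s and 90.8 and 134 FPKM in MH86. Differences between days within a line were not tested. MADS50 (-0.17 ± 0.07, limma adjusted p = 0.0553) was called with median-ratio and with quantile scaling. MADS22 was the one other MADS-box gene called, at -0.13 ± 0.05.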

How the data were processed

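The authors deposited 1 table of FPKM values for 34653 genes in 51 libraries, 17 of each line. The submitters' processing notes name TopHat2 and Cuffdiff. Tool versions, genome build and annotation: not given in the sources used here. FPKM divides by transcript length and library total, so the few very abundant leaf transcripts can shift every other gene. All sample columns were used.

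Values were tested as log2(FPKM + 0.5) with limma 3.58.1 (trended, robust variances) in R 4.3.3, over 16842 genes whose mean reached 1 FPKM, with Benjamini-Hochberg adjustment at 0.05. Levels were compared with line and time point as terms, the time point coming from the labels and pairing the libraries of the lines. Rhythms used 24 h cosine and sine terms, and the day comparison used 48 libraries. The scripts were tested on simulated data.

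All 8 genes were described in every comparison. Of the other MADS-box and flowering lists, up to 4 genes with the smallest adjusted p were eligible for naming, with Hd3a, Ehd1, FD1 and MADS34 for their levels; floral partners were added for their levels. For nearest patterns, the 2 highest Pearson r were taken, with the highest within the lists. The members and lists were chosen with earlier results of these data known. Alternatives were other pseudocounts, no filter, median-ratio and quantile scaling, no time block, single days, an added 12 h term and omitted times; those without libraries with grain markers, the omitted times and the pairwise rhythm tests were chosen after seeing the data. Sequences were not used here, and 1 gene of the flowering list is not reported here. One of the locus IDs matched the RefSeq gene table of another assembly, so names come from general knowledge.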

Additional observations from a re-analysis of the deposited data

Results flagged for a closer look

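Of the 8 members, 3 had a 24 h rhythm that differed between the lines by the test of the difference itself. MADS1 had a limma adjusted p of 9.28e-05, with trough-to-peak folds of 6.48 in LY2186, 2.60 in SE21s and 15.6 in MH86. MADS51 had a limma adjusted p of 0.00654, with fitted peaks at 7.90 h in LY2186, 7.84 h in SE21s and 4.17 h in MH86 and folds of 1.38, 1.38 and 1.60 in these lines. MADS15 had a limma adjusted p of 0.0291, with folds of 1.92 in LY2186, 1.28 in SE21s and 5.65 in MH86, of which that in MH86 was called and that in LY2186 was called with quantile scaling. The test was run for 8 members, and 25.2% of all genes tested were called by it.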

How the results depend on the processing

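Over the alternatives other than omitted times, 827 of 912 member results kept their direction and side of the threshold, 65 lost the call, 11 gained it and 9 turned sign. Counts of members called moved by over 1.5 times as follows. Without a filter on low values, 1 was called against the mean of the parents and 0 in rhythm between LY2186 and SE21s. A pseudocount of 0.1 gave 0 for LY2186 and SE21s, and 1 gave 2 for LY2186 and MH86. The day comparison gave 3 with median-ratio and 2 with quantile scaling. Without ZT48, both pairwise rhythm counts with LY2186 were 0. With no replicate block (time point left out of the model), members called fell to 0 for LY2186 against SE21s, 1 against MH86 and 0 against the mean of the parents, and to 1 for rhythm differences over 3 lines, 0 for each pair with LY2186 and 1 for SE21s and MH86; the time variation then enters the residual spread. The first day alone gave 2 against SE21s, 3 against MH86 and 1 against the mean of the parents, and the second day alone 0 against MH86 and 0 against the mean of the parents, with fewer libraries. Without the LY2186 library of ZT15, 1 was called against the mean of the parents, and without SE21s at ZT27 and MH86 at ZT18, 0 in rhythm between LY2186 and SE21s. The cause of the other changes was not tested.

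Values that turned sign were all uncalled: SE21s minus MH86 for MADS14 at 0.0684 with median-ratio scaling and 0.0688 with the first day alone, and for MADS18 at -0.0505 with the second day alone; LY2186 minus the mean of the parents for MADS50 at -0.0162 with median-ratio scaling, -0.0222 with quantile scaling, -0.0429 with the second day alone and -0.0175 without SE21s at ZT27 and MH86 at ZT18; LY2186 minus SE21s for MADS3 at 0.0295 and LY2186 minus MH86 for MADS15 at 0.36 with the first day alone. With each time omitted in turn, members called ranged from 6 to 7 for LY2186 against SE21s, 4 to 5 against MH86, 1 to 3 against the mean of the parents, 5 to 6 between the parents and 1 to 2 between days. Rhythms ranged from 6 to 8 in LY2186, 6 to 7 in SE21s and stayed at 8 in MH86, rhythm differences from 2 to 4 over 3 lines, 0 to 1 for LY2186 and SE21s, 0 to 2 for LY2186 and MH86 and 2 to 5 for SE21s and MH86. In those omissions MADS50 ranged from -0.0480 to 0.0271 against the mean of the parents, MADS14 from -0.0621 to 0.00877 between the parents and MADS15 from -0.0878 to 0.18 between days. Between the parents, MADS16, MADS50, MADS1 and MADS3 kept direction and call in all 11 alternatives. Among all genes called between LY2186 and SE21s, 57.3% were higher in LY2186, against 47.9% under median-ratio and 49.1% under quantile scaling; the read counts behind the FPKM values are unknown, so no counting interval can be given.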
